A study of Mus musculus with 15 samples.

Results

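RNA of 43 enzymes that break down or build amino acids was followed in the kidneys of mice with and without telomerase, after folic acid or its vehicle. The enzymes were chosen by symbol, for tyrosine, tryptophan, lysine, proline, branched-chain, glycine, arginine and glutamate metabolism. All 43 were among the 19602 genes of the deposited table, and all 43 passed the filter on low values, which asked for 10 normalised counts or more in 3 libraries or more and kept 14651 genes. Mice were Tert+/+ (here WT) or the generation 3 of Tert-/- mice (here G3), the latter bred without the catalytic subunit of telomerase so that telomeres shorten from one generation to the next. The mice, males and females aged 6 to 8 weeks, received 1 intraperitoneal injection of folic acid at 125 mg/kg or of 200 microlitres of 0.3 M NaHCO3, and kidneys perfused with cold PBS were taken at day 14. Of the 15 libraries, 8 were G3 (4 after each treatment) and 7 WT (4 vehicle and 3 folic acid), and their numbers (WT folic acid 1, for example) follow accession order and pair nothing. G3 mice of both treatments lack Tert, no group is G3 with telomerase restored, and folic acid at this dose stands for a chemical injury of the tubule.

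Most amino acid breakdown in the kidney takes place in the proximal tubule, whose cells reabsorb filtered amino acids, oxidise part of them in their mitochondria and make arginine, creatine precursors, glucose and ammonia from others. Tyrosine, lysine, leucine and ketone breakdown meet at acetoacetate and acetoacetyl-CoA, tryptophan breakdown runs through kynurenine, and proline, ornithine and arginine meet at glutamate semialdehyde. Proximal tubule cells respond to androgens, and many of their enzymes differ between male and female rodent kidneys.

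Each library held 5014684 to 6609307 reads assigned to genes, of which 0.406 to 0.694 percent were from the 43 enzymes. Values are counts divided by a size factor per library (normalised counts), and 1 read was worth 0.895 to 1.13 of them. Libraries read the 3' end of polyadenylated RNA, from RNA with quality scores of 6.3 on average (4.7 to 8.0). The labels name no animal for a library, so p-values measure the spread between these libraries. The 2 closest libraries, G3 vehicle 3 and 4, differed by a chi-square averaging 2.79 a gene, above sampling noise, and WT folic acid 2 and 3 by 2.92. Closeness also crossed the groups. WT vehicle 2 was nearest to WT folic acid 2 (8.64) and differed by 20.7 to 29.0 from the rest of WT vehicle. G3 folic acid 2 was nearest to G3 vehicle 3 (8.01) and differed by 14.0 to 25.7 from the rest of G3 folic acid. WT vehicle 4 and G3 folic acid 3 differed by 7.39. Tert itself had 3.00 to 22.6 normalised counts in WT and 2.93 to 15.1 in G3, ranges that overlap. Reads of the 3' end do not check its deletion. The proximal tubule markers (10 genes, all detected) summed to 40503 to 53512 in WT vehicle, 26749 to 43259 in WT folic acid, 34461 to 41621 in G3 vehicle and 24889 to 44831 in G3 folic acid, and so matched the tissue. Of the injured tubule markers (4 genes), the sum was 53.9 to 105 in WT vehicle, 85.4 to 720.4 in WT folic acid, 72.5 to 133 in G3 vehicle and 189.8 to 672 in G3 folic acid, and Havcr1 and Krt20 were at 0 in at least 1 library. Of WT folic acid, library 1 alone was raised (720.4), and libraries 2 and 3 (85.4 and 102.0) lay within the range of the vehicle libraries.

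Sex was not balanced over the groups, and it bears on every comparison below. Xist, the RNA of the inactive X chromosome, and 4 Y-linked genes (Uty, Ddx3y, Eif2s3y and Kdm5d) contradicted the labelled sex in 10 of 15 libraries and fitted it in 3. Whether genotype or treatment labels are wrong as well was not tested, so group names below are those of the labels. The remaining 2 libraries, WT vehicle 2 and G3 folic acid 4, held both kinds of RNA, with Xist at 3027 and 2006 and Y-linked sums of 283 and 273. Libraries with Y-linked RNA alone, here a summed Y-linked count over 500 and Xist under 100, were 5: numbers 1, 3 and 4 of WT vehicle, with 1 and 3 of G3 folic acid. Their Xist was 5.99 to 84.9 normalised counts, against 3147 to 5217 in the other 8, whose Y-linked sum was 0.977 to 29.5. These 8 are called Xist alone: the 3 of WT folic acid, the 4 of G3 vehicle, and library 2 of G3 folic acid. The 2 kinds of library thus largely follow the groups. A gap between them cannot by itself tell Y-linked RNA from genotype and treatment. The summed Y-linked count over that of the highest library, here the Y share, was 0.327 to 1 in WT vehicle and 0.011 to 0.034 in WT folic acid. In G3 it was 0.00113 to 0.00873 after vehicle and 0.0173 to 0.8 after folic acid. The Y share was therefore a term of the limma fit over all 15 libraries, and a fit without a sex term is given beside it. Treatment and Y-linked RNA cannot be told apart among the WT libraries alone, save through WT vehicle 2. Sample numbers in the titles fall into 3 runs that largely follow the groups, and a fit with the run as a further term called 0, 0, 0, 0 and 0 enzymes in the 5 group comparisons and 3 for the Y share. In whole kidneys, fewer cells of a type and less RNA per cell cannot be told apart either.

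WT folic acid 1 and G3 folic acid 2 stood apart for these enzymes. WT folic acid 1 was the lowest of the 15 libraries for 18 of 43 enzymes, against 14.8 percent of all tested genes that were lowest there. G3 folic acid 2 was lowest for 7 enzymes, against 7.85 percent of tested genes. Both lay below the 15-library mean for 34 of 43 enzymes on the log2 scale, by a median of -0.28 and -0.27. G3 folic acid 4 did so for 33 (median -0.15) and G3 folic acid 1 for 28 (median -0.13). Medians over all tested genes were 0.0022 to 0.0085 in these libraries. Proximal tubule markers summed to 26749 in WT folic acid 1 and 24889 in G3 folic acid 2, the lowest of all. Injured tubule markers summed to 720.4 and 483 in the same 2, and to 672 and 607 in G3 folic acid 1 and 4. WT folic acid 1 also had 23.0 percent of its reads in Gm42418, a gene model that overlaps ribosomal RNA, against 4.85 to 8.15 percent elsewhere. At the other end, G3 vehicle 2 was the highest library for 13 enzymes, with a median 0.32 above the mean on the log2 scale. All tested genes had a median of 0.0073 there, and the share of them highest there was not computed. The part of these library differences in the results below was not tested, except by leaving each library out.

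**Figure D1:**
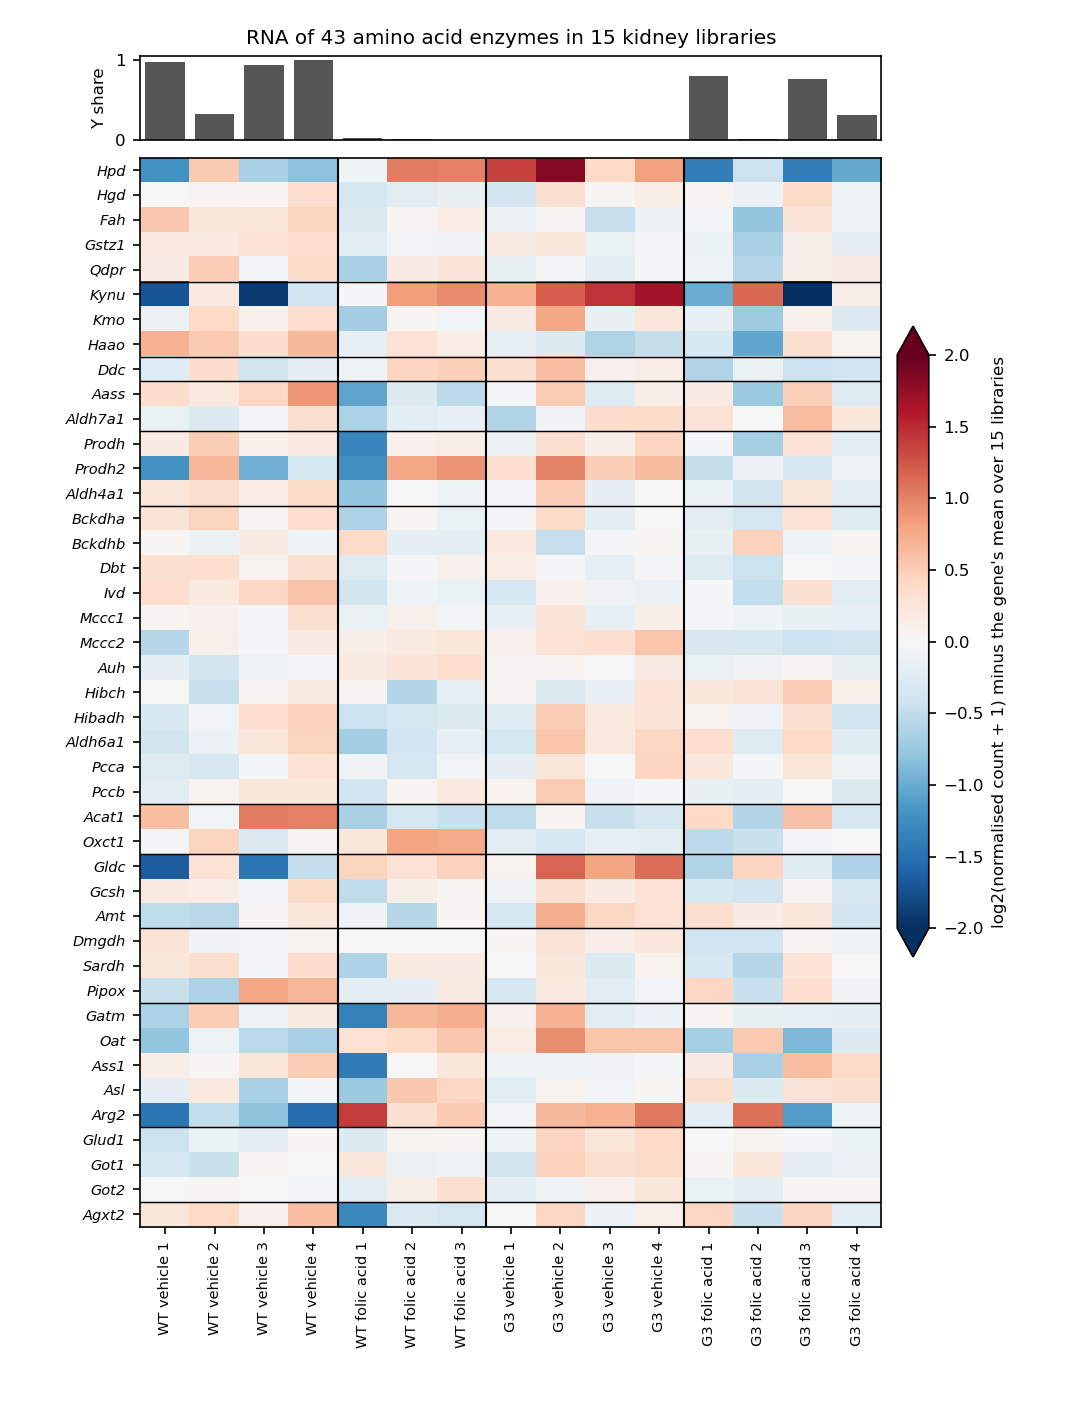
Heat map of log2(normalised count + 1) minus the gene's mean over 15 libraries for 43 enzymes (rows, grouped by pathway) in single libraries (columns, grouped by treatment and genotype), with the Y share of each library as bars on top. Hpd, Kynu, Gldc, Oat and Arg2 are low (blue) where the bars are high, Acat1 is high there, and WT folic acid 1 is pale to dark blue for most rows.

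In the fit on the Y share Acat1 was higher, and Oat and Kynu were lower, at a higher Y share. These 3 of 43 enzymes passed for the Y share term, against 1.30 percent of all 14651 genes tested (0.730 percent higher and 0.567 percent lower). A further 9 had an unadjusted p under 0.05, 12 of 43 in all, where 11.3 percent of tested genes did. The term is the log2 difference between a Y share of 0 and 1 at the same labelled genotype and treatment. It thus rests on libraries that differ within WT vehicle and within G3 folic acid. In WT vehicle the Y share was 0.94 to 1 save for library 2 (0.33). In G3 folic acid it was 0.80, 0.017, 0.77 and 0.31 in libraries 1 to 4. WT vehicle 2 and G3 folic acid 2 were each nearest to a library of the other treatment, and the part of this in the term was not tested. edgeR on the recovered reads called 3 enzymes and DESeq2 called 5. Without the 2 libraries of both kinds of RNA, 1 enzyme was called, Oat.

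Acat1 is the mitochondrial thiolase that splits acetoacetyl-CoA in ketone breakdown, and it also acts at the end of isoleucine breakdown. Its normalised counts were 1981, 1250.2, 2670.1 and 2603 in WT vehicle and 833, 1014 and 952 in WT folic acid. Acat1 in G3 was 917, 1347, 959.6 and 1025 after vehicle and 1716, 870.0, 1949 and 1046 after folic acid. The 5 libraries with Y-linked RNA alone (1716 to 2670.1) all lay above the 8 with Xist alone (833 to 1347), and the 2 libraries of both kinds lay among the latter. Its Y share term was log2 1.43 (SE 0.23, limma adjusted p = 0.00269), 2.69-fold higher at a Y share of 1, and it passed with each single library left out in turn (limma adjusted p of 0.00125 to 0.0492). Without both libraries that hold the 2 kinds of RNA its limma adjusted p was 0.0995.

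Oat, ornithine aminotransferase, which links ornithine to glutamate semialdehyde, had 185, 297, 219 and 202 in WT vehicle and 388, 411 and 462 in WT folic acid. Oat in G3 was 351, 609, 469.5 and 466 after vehicle and 199.7, 459, 171 and 263 after folic acid. The order was the reverse of that of Acat1, with 171 to 219 in libraries with Y-linked RNA alone and 351 to 609 in those with Xist alone. Within G3 folic acid, libraries 1 and 3 had 199.7 and 171, library 4 with both kinds had 263, and library 2 with Xist alone had 459. The Y share term was log2 -1.29 (SE 0.25, limma adjusted p = 0.0142), 2.44-fold lower at a Y share of 1. It was lost without G3 folic acid 2 (limma adjusted p = 0.198) and G3 folic acid 3 (limma adjusted p = 0.0739). Oat spans chromosome 7, 132557478 to 132576398 (GRCm38, GENCODE M21), inside a longer Fgfr2 model of the same strand whose exons it does not overlap.

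Kynu, kynureninase, which cleaves kynurenine and hydroxykynurenine, was a gene of few reads, with 4.52, 19.9, 3.84 and 13.0 in WT vehicle and 17.0, 31.7 and 34.3 in WT folic acid. Kynu in G3 was 28.5, 41.0, 48.7 and 57.1 after vehicle and 8.17, 39.5, 0.999 and 18.8 after folic acid. All 5 libraries with Y-linked RNA alone (0.999 to 13.0) lay below all 8 with Xist alone (17.0 to 57.1). The Y share term was log2 -3.39 (SE 0.78, limma adjusted p = 0.0392), 10.5-fold lower at a Y share of 1, a size that depends on the pseudocount of 1 because the lowest library held a single read. Without any 1 of 11 of the 15 libraries it no longer passed, with limma adjusted p of 0.0527 to 0.227, the largest without G3 folic acid 2. These 11 were WT vehicle 1 to 3, WT folic acid 2 and 3, G3 vehicle 2 to 4 and G3 folic acid 2 to 4.

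Promoters are shown for enzymes of either direction, Oat and Hpd with a Y share term below 0 and Pipox and Aass with one above 0, of which Oat alone passed the test. Each is the 250 bases before the gene's start in RefSeq, on the minus strand of GRCm38.p6, written 5′ to 3′: Oat at chr7:132576399-132576648, Hpd at chr5:123182724-123182973, Pipox at chr11:77893873-77894122 and Aass at chr6:23132987-23133236. GENCODE M21 starts Pipox further upstream than RefSeq does, at 77894096, so most of the Pipox stretch lies inside that gene model. RefSeq promoters were matched for 37 of 43 enzymes, and Acat1, Kynu and Arg2 had no entry. Capitals mark matches, on either strand, to CCAAT (the CCAAT box), AGGTCA (a half-site of nuclear receptor elements) or CAAAGTCC (an element of HNF4), the first and last chosen after the letters were seen.
Oat: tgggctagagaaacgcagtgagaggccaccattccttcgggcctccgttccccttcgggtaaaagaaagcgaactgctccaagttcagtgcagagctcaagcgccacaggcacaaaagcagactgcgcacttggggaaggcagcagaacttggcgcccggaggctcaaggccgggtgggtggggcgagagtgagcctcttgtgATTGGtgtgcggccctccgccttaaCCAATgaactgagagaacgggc
Hpd: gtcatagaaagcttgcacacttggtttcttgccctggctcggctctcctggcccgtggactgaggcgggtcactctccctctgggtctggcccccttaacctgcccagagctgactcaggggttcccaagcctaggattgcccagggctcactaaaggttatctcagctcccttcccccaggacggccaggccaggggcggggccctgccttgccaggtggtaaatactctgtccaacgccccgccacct
Pipox: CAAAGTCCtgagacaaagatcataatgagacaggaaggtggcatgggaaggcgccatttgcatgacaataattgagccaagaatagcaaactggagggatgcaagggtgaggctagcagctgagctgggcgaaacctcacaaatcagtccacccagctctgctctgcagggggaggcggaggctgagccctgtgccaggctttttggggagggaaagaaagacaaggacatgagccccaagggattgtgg
Aass: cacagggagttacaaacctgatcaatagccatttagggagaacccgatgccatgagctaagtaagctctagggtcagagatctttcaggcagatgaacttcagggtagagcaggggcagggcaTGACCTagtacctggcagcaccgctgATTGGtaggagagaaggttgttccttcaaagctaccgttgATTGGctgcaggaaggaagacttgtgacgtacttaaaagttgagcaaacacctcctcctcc
CCAAT occurred 2 times before Oat and 2 times before Aass, CAAAGTCC 1 time before Pipox and AGGTCA 1 time before Aass. AGAACA, a half-site of steroid receptor elements, was searched too and matched none of the 4, and Hpd had no match to any of the 4 motifs. Of all 32851 promoters of the same length, 33.8 percent held CCAAT, 14.0 percent AGGTCA, 16.1 percent AGAACA and 1.20 percent CAAAGTCC.

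Hpd, hydroxyphenylpyruvate dioxygenase, the second step of tyrosine breakdown, was also lower in all 5 libraries with Y-linked RNA alone (66.9 to 112) than in all 8 with Xist alone (131 to 632), but its Y share term did not pass (log2 -1.62, SE 0.46, limma adjusted p = 0.115). It passed without WT folic acid 1 (limma adjusted p = 0.0427). Arg2, the mitochondrial arginase, had 18.1, 36.0, 28.8 and 17.0 in WT vehicle and 136, 63.3 and 73.4 in WT folic acid. Arg2 in G3 was 48.8, 80.1, 83.3 and 106 after vehicle and 43.6, 109.9, 23.0 and 47.4 after folic acid. Low values again stood with Y-linked RNA alone, and the term of Arg2 was log2 -1.71 (SE 0.49, limma adjusted p = 0.122). Gldc, the glycine decarboxylase of the glycine cleavage system, had 48.6, 191, 56.6 and 113 in WT vehicle and 213, 192 and 216 in WT folic acid. Gldc in G3 was 165, 353, 272 and 339.8 after vehicle and 103, 210.4, 133 and 102 after folic acid. The term of Gldc was log2 -1.43 (SE 0.47, limma adjusted p = 0.202). Ddc makes dopamine from L-DOPA in the proximal tubule. It was 377 to 503 with Y-linked RNA alone and 523 to 870.5 with Xist alone, with a term of log2 -0.68 (SE 0.23, limma adjusted p = 0.216). These 4 with Acat1, Oat and Kynu were the 7 of 43 enzymes whose 2 kinds of library did not overlap, against 4.24 percent of tested genes. Since the 2 kinds largely follow the groups, such a gap cannot tell Y-linked RNA from genotype and treatment.

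Enzymes above 0 for the Y share term were more numerous, 31 of 43 with a median of 0.22 on the log2 scale, where all tested genes had a median of -0.0036. G3 folic acid 2, the only Xist-alone library in a group that also held libraries with Y-linked RNA alone, was below the mean for 34 of 43 enzymes. It also had the lowest proximal tubule marker sum (24889). The part of that library in these counts was not tested. After Acat1 the largest terms were those of Pipox, the peroxisomal oxidase of sarcosine and pipecolate, and Aass, the bifunctional enzyme that starts lysine breakdown. Pipox had 258, 227, 598 and 554 in WT vehicle and 309.7, 308 and 396 in WT folic acid. Pipox in G3 was 278, 401, 302 and 336 after vehicle and 467, 256, 445 and 332 after folic acid. Its term was log2 1.20 (SE 0.34, limma adjusted p = 0.12). The 2 kinds of library overlapped for it, since WT vehicle 1 (258) was as low as the Xist libraries. Aass had 992, 892, 1036 and 1412 in WT vehicle and 374, 641 and 541 in WT folic acid. Aass in G3 was 761, 1104, 652 and 855 after vehicle and 872, 466, 1082 and 653 after folic acid. The term of Aass was log2 0.99 (SE 0.31, limma adjusted p = 0.169). Fah, which splits fumarylacetoacetate at the end of tyrosine breakdown, had log2 0.71 (SE 0.25, limma adjusted p = 0.225), and Ivd, isovaleryl-CoA dehydrogenase of leucine breakdown, log2 0.61 (SE 0.20, limma adjusted p = 0.188).

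**Figure D2:**
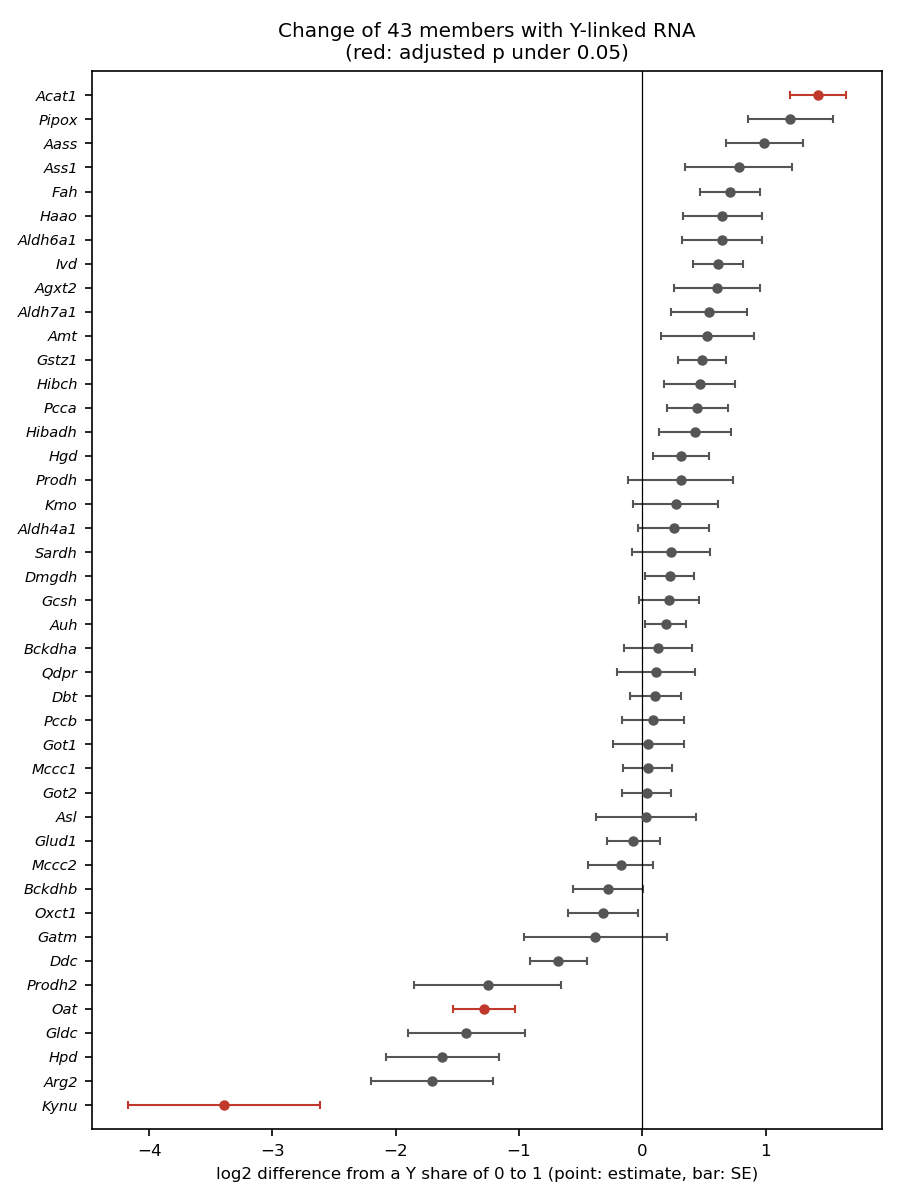
Y share term of 43 enzymes (point: log2 difference between a Y share of 0 and 1, bar: SE, from the limma fit over 15 libraries), sorted by size, with the 3 that passed in red. Acat1 stands at 1.43, Oat at -1.29 and Kynu at -3.39, and the other points are grey.

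**Figure D3:**
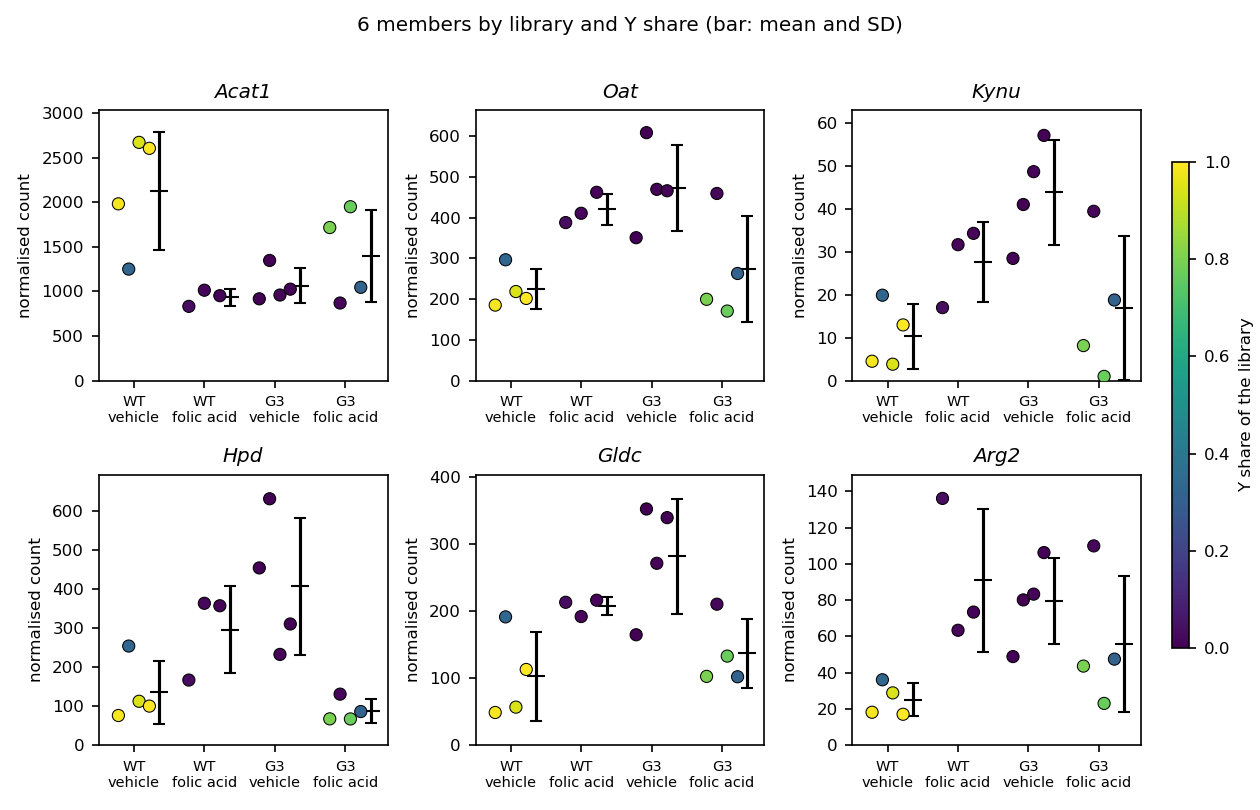
Normalised counts of Acat1, Oat, Kynu, Hpd, Gldc and Arg2 in single libraries of the 4 groups, coloured by Y share (yellow high, dark low), with each group's mean and SD. For Acat1 the yellow and green points are the high ones (1716 to 2670.1 without the blue points of both kinds of RNA), and for the other 5 genes they are the low ones.

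Folic acid against vehicle in WT gave no enzyme past the threshold with the Y share in the fit. limma called 0 of 43, against 0.00683 percent of all tested genes, with 2 enzymes at an unadjusted p under 0.05 (Auh and Pipox), as had 4.38 percent of tested genes. On the recovered reads edgeR called 0 and DESeq2 0. The median over the 43 was log2 -0.045 (0.004 over all tested genes), with 21 above 0 and 22 below. In the fit without a sex term limma called 5, against 5.06 percent of tested genes. These were Arg2 (log2 1.81, SE 0.42, limma adjusted p = 0.026) and Auh (log2 0.43, SE 0.11, limma adjusted p = 0.0358), which were higher. The others were Aass (log2 -1.07, SE 0.26, limma adjusted p = 0.0277), Acat1 (log2 -1.13, SE 0.27, limma adjusted p = 0.0284) and Agxt2 (log2 -0.96, SE 0.25, limma adjusted p = 0.0358), which were lower. With the labelled sex as the term, Agxt2 and Aass were called, 2 of 43, against 2.53 percent. Leaving out WT folic acid 1 as well as the sex term ended all 5 calls (0 of 43, against 0.917 percent). The 2 groups did not overlap for 14 of 43 enzymes, where 19.9 percent of tested genes did not overlap. Of these, 4 were higher after folic acid and 10 lower, where 9.31 and 10.6 percent of tested genes were.

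Folic acid against vehicle in G3 lay below 0 for 37 of 43 enzymes with the Y share in the fit, with a median of log2 -0.28 where all tested genes had -0.028, and no enzyme passed. Of G3 folic acid, library 2 (Y share 0.017) was closest in Y share to G3 vehicle (0.00113 to 0.00873). The enzymes' medians from the 15-library mean were -0.13, -0.27, 0.12 and -0.15 in G3 folic acid 1 to 4. The part of library 2 in the count of 37 was not tested. limma called 0 of 43, against 0.0614 percent of tested genes, with 7 at an unadjusted p under 0.05 (Hpd, Gstz1, Dmgdh, Mccc2, Gcsh, Aass and Kmo), as had 8.93 percent of tested genes. On the recovered reads edgeR called 0 and DESeq2 1, the latter Hpd. Leaving out the sex term, 33 lay below 0, with a median of -0.18, and limma called Hpd, 1 of 43, against 0.273 percent. Hpd alone was called with the labelled sex too, against 0.0819 percent. With neither a sex term nor WT folic acid 1, Hpd, Ddc and Mccc2 were called, 3 of 43, against 2.48 percent. Groups did not overlap for 4 enzymes, Hpd, Ddc, Prodh2 and Mccc2, each lower after folic acid. Of tested genes 7.75 percent did not overlap, 3.98 percent higher and 3.77 percent lower. The G3 folic acid libraries had proximal tubule marker sums of 24889 to 44831, against 34461 to 41621 in G3 vehicle. Their injured tubule sums were 189.8 to 672, against 72.5 to 133. The part of either in these values was not tested.

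G3 against WT after vehicle gave 0 of 43 calls by limma with the Y share, against 0.00683 percent of tested genes, with 4 at an unadjusted p under 0.05 (Pcca, Amt, Auh and Pipox), as had 5.79 percent of tested genes. On the recovered reads edgeR called 0 and DESeq2 0. Of the enzymes, 32 lay above 0, with a median of log2 0.20 (-0.00069 over all tested genes). Without a sex term 24 lay above 0, with a median of 0.037 (0.019 over all tested genes). limma without a sex term called 5, against 2.90 percent. These were Gldc (log2 1.61, SE 0.35, limma adjusted p = 0.023), Hpd (log2 1.64, SE 0.37, limma adjusted p = 0.0246), Oat (log2 1.06, SE 0.24, limma adjusted p = 0.0278) and Arg2 (log2 1.65, SE 0.39, limma adjusted p = 0.0305), which were higher, and Haao (log2 -0.93, SE 0.21, limma adjusted p = 0.028), which was lower. WT vehicle had Y shares of 0.327 to 1 and G3 vehicle of 0.00113 to 0.00873, so in that fit genotype and Y-linked RNA cannot be told apart. None of 43 was called with the labelled sex, against 0.116 percent. With neither a sex term nor WT folic acid 1, 7 were called, the same 5 with Acat1 and Prodh2, against 4.40 percent. Groups did not overlap for 9 enzymes, against 11.0 percent of tested genes.

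G3 against WT after folic acid gave 0 of 43 calls by limma with the Y share, against 0.116 percent of tested genes, with 6 at an unadjusted p under 0.05 (Auh, Oxct1, Hpd, Haao, Fah and Mccc2), as had 10.5 percent of tested genes. On the recovered reads edgeR called 0 and DESeq2 0. When the sex term was left out, limma called Oxct1 (log2 -0.85, SE 0.19, limma adjusted p = 0.0303) and Hpd (log2 -1.71, SE 0.40, limma adjusted p = 0.0332), both lower in G3, against 2.30 percent. The same 2 were called with the labelled sex, against 1.83 percent. Ddc joined them when WT folic acid 1 was left out as well, 3 of 43, against 4.31 percent. The groups did not overlap for 8 enzymes, against 17.3 percent of tested genes. For the difference between the folic acid effects (G3 minus WT) limma called 0 of 43 with the Y share, against 0.0137 percent, with 2 at an unadjusted p under 0.05 (Auh and Pipox), as had 2.78 percent of tested genes. On the recovered reads edgeR called 0 and DESeq2 0. The fit without a sex term called 8, against 3.82 percent, with Hpd, Oat, Gldc, Arg2, Ddc, Mccc2 and Auh below 0 and Acat1 above. Mean Y shares were 0.81 in WT vehicle, 0.021 in WT folic acid, 0.0057 in G3 vehicle and 0.48 in G3 folic acid. In that fit the difference and Y-linked RNA therefore cannot be told apart. With the labelled sex only Hpd was called, against 0.703 percent. Leaving out WT folic acid 1 as well as the sex term gave 8 again, with Prodh2 in place of Acat1, against 3.92 percent. The comparisons share libraries, so a group that is high or low enters several of them.

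**Figure D4:**
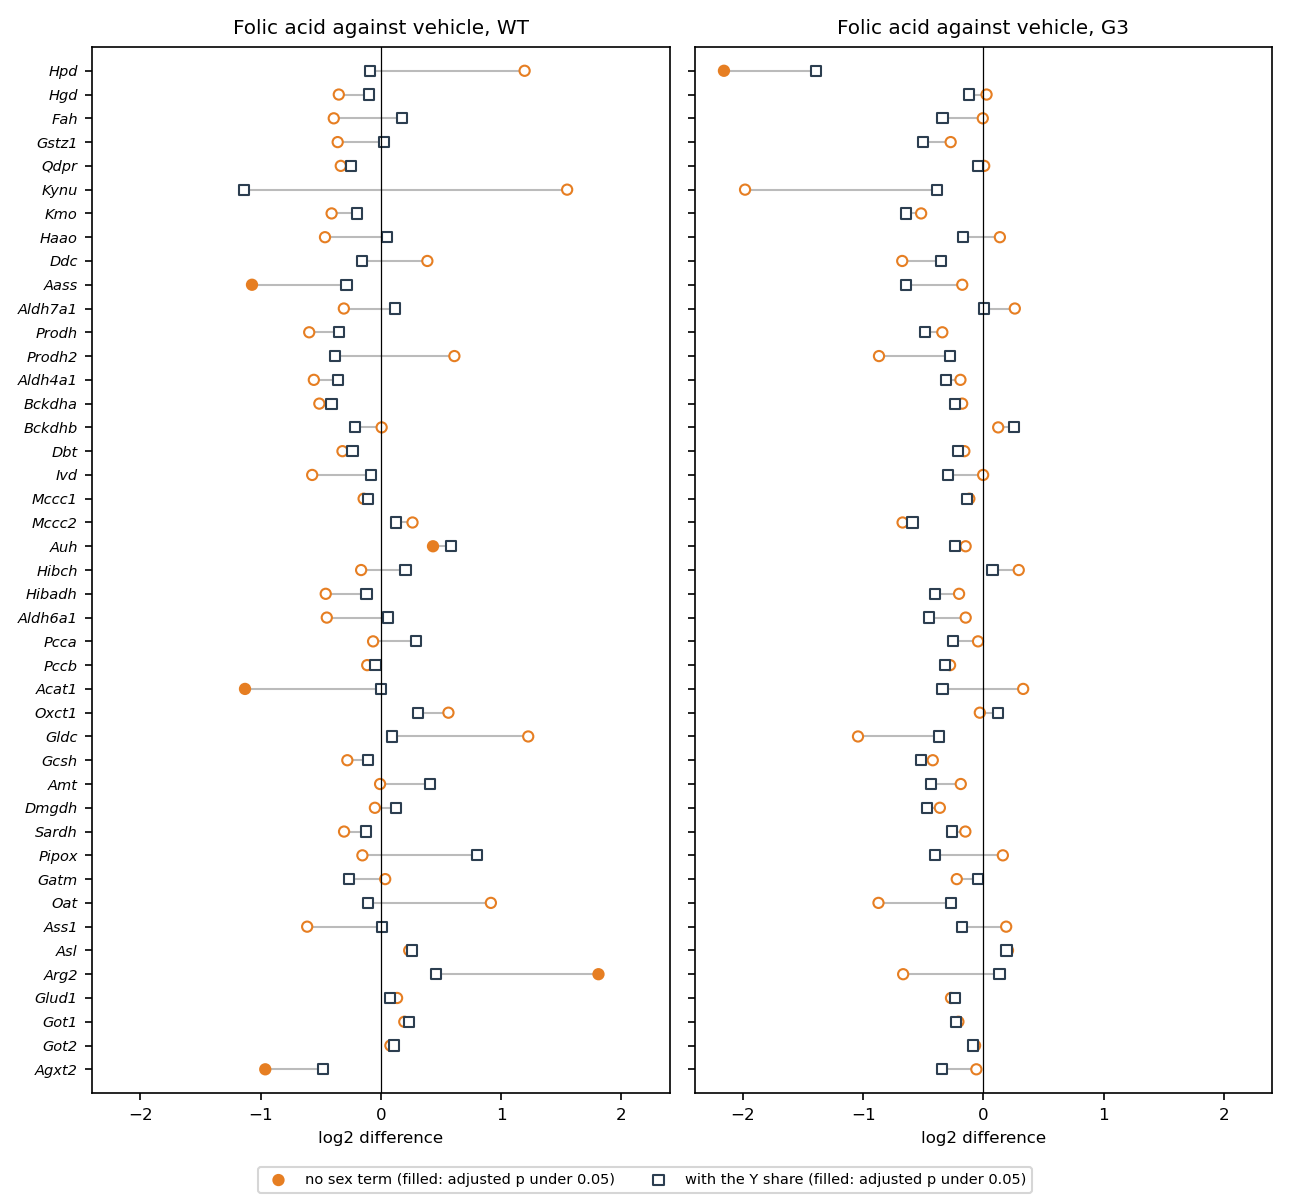
log2 difference of folic acid against vehicle for 43 enzymes in WT (left) and G3 (right), from the limma fit without a sex term (orange circles) and with the Y share (blue squares), filled where adjusted p was under 0.05. In WT the fits part most for Kynu (1.55 and -1.14), and 37 of 43 squares of G3 lie left of 0.

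Tyrosine breakdown was represented by Hpd, Hgd, Gstz1 and Fah in order, with Qdpr, which regenerates the cofactor of the aromatic hydroxylases. Hpd had 75.8, 254, 112 and 99.9 in WT vehicle and 167, 364 and 357 in WT folic acid. Hpd in G3 was 455, 632, 233 and 311 after vehicle and 67.2, 131, 66.9 and 85.9 after folic acid. G3 folic acid lay below G3 vehicle in every library, 87.6 ± 30.0 (SD, n = 4 libraries) against 407 ± 176 (SD, n = 4 libraries), and G3 folic acid 2, which held Xist alone as G3 vehicle did, had 131. The folic acid effect in G3 was log2 -1.40 (SE 0.35, limma adjusted p = 0.285) in the Y share fit, 2.63-fold lower, and log2 -2.16 (SE 0.37, limma adjusted p = 0.0252) without a sex term. Without WT folic acid 1 it passed with the Y share (log2 -1.40, SE 0.30, limma adjusted p = 0.0356). In WT the effect was log2 -0.092 (SE 0.48, limma adjusted p = 0.992) in the Y share fit and log2 1.19 (SE 0.40, limma adjusted p = 0.0862) without, the signs differing. Their difference was log2 -1.30 (SE 0.71, limma adjusted p = 1) in the Y share fit and log2 -3.35 (SE 0.54, limma adjusted p = 0.00334) without, and after folic acid G3 against WT was log2 -0.98 (SE 0.37, limma adjusted p = 0.381) and log2 -1.71 (SE 0.40, limma adjusted p = 0.0332). Markers of liver, where Hpd is abundant (6 genes, none at 0 in any library), summed to 686 to 2356 over the libraries, highest in WT vehicle 3 and next in G3 folic acid 2, where Hpd was 112 and 131. Their part in the Hpd values was not tested.

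No enzyme downstream of Hpd passed in any group comparison. Gstz1, maleylacetoacetate isomerase, had 1065, 1061, 1123 and 1173 in WT vehicle and 805, 895 and 884 in WT folic acid. Gstz1 in G3 was 1059, 1074, 846 and 905 after vehicle and 846, 590.0, 1012 and 809 after folic acid. G3 folic acid 2 was the lowest of all. Its folic acid effect in G3 was log2 -0.50 (SE 0.15, limma adjusted p = 0.299) in the Y share fit and log2 -0.27 (SE 0.14, limma adjusted p = 0.401) without. Hgd, homogentisate dioxygenase, was 870.3 ± 98.6 (SD, n = 4 libraries) in WT vehicle and 680.4 ± 48.8 (SD, n = 3 libraries) in WT folic acid, groups that did not overlap. In G3 it was 828 ± 160.3 (SD, n = 4 libraries) after vehicle and 839 ± 137 (SD, n = 4 libraries) after folic acid. Fah was 1931 ± 219 (SD, n = 4 libraries) in WT vehicle and 1345 ± 183 (SD, n = 4 libraries) in G3 vehicle, with WT vehicle above both WT folic acid and G3 vehicle in every library. Qdpr ranged from 639.9 in WT folic acid 1 to 1435 in WT vehicle 2.

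Of tryptophan breakdown, Kmo, which makes hydroxykynurenine, had group means of 373 ± 58.8 (SD, n = 4 libraries), 285 ± 72.5 (SD, n = 3 libraries), 402 ± 112 (SD, n = 4 libraries) and 279 ± 63.0 (SD, n = 4 libraries) for vehicle and folic acid in WT, then in G3. Haao, which opens the ring of hydroxyanthranilate on the way to NAD, had 1656, 1470.1, 1315 and 1603 in WT vehicle and 911, 1253 and 1134 in WT folic acid. Haao in G3 was 911, 853, 678 and 736 after vehicle and 828, 498, 1276 and 1078 after folic acid. WT vehicle lay above G3 vehicle in every library, 1511 ± 152 (SD, n = 4 libraries) against 795 ± 106 (SD, n = 4 libraries). The genotype difference after vehicle was log2 -0.93 (SE 0.21, limma adjusted p = 0.028) without a sex term but log2 -0.41 (SE 0.32, limma adjusted p = 0.842) in the Y share fit. After folic acid it was log2 -0.62 (SE 0.25, limma adjusted p = 0.41) in the Y share fit, and the lowest library was G3 folic acid 2. The folic acid effect on Kynu in WT changed sign between the fits, log2 1.55 (SE 0.74, limma adjusted p = 0.221) without a sex term and log2 -1.14 (SE 0.80, limma adjusted p = 0.981) in the Y share fit. Ddc was 705 ± 119 (SD, n = 4 libraries) in G3 vehicle and 440.0 ± 61.2 (SD, n = 4 libraries) in G3 folic acid, groups that did not overlap, with a difference of log2 -0.36 (SE 0.18, limma adjusted p = 0.586) in the Y share fit.

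Lysine breakdown starts with Aass, whose 3 WT folic acid libraries (374, 641 and 541) all lay below the 4 of WT vehicle (892 to 1412). That difference was called without a sex term and was log2 -0.29 (SE 0.32, limma adjusted p = 0.981) in the Y share fit. In G3 folic acid, library 2 with Xist alone had 466 and libraries 1 and 3 had 872 and 1082. The effect in G3 was log2 -0.64 (SE 0.24, limma adjusted p = 0.413). Aldh7a1, the next step, was 344 ± 58.2 (SD, n = 3 libraries) in WT folic acid and 529 ± 96.9 (SD, n = 4 libraries) in G3 folic acid, groups that did not overlap, and differed by log2 0.37 (SE 0.25, limma adjusted p = 0.628). Proline breakdown was lowest in WT folic acid 1, with Prodh, proline dehydrogenase, at 194 against 512 and 529 in the other 2 libraries of its group. Prodh2, the hydroxyproline dehydrogenase, was 104 there against 420.4 and 459, but it was also low in WT vehicle 1, 3 and 4 (106, 125 and 193). WT folic acid 1 had the lowest value of all for Prodh and for Prodh2. Aldh4a1, which oxidises the semialdehydes that both yield, was 596 there against 1016 and 964. None of the 3 passed in any group comparison by either fit over all 15 libraries. Prodh2 passed without a sex term once WT folic acid 1 was left out, for genotype after vehicle and for the difference of the folic acid effects.

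Branched-chain breakdown held 12 enzymes, none called with the Y share in any comparison, with median folic acid effects of log2 -0.065 in WT and -0.25 in G3. The shared dehydrogenase complex (Bckdha, Bckdhb and Dbt) removes the carboxyl group of all 3 branched keto acids. Bckdha had 582, 664, 506 and 615 in WT vehicle and 318, 497 and 444 in WT folic acid. Bckdha in G3 was 478, 636, 432 and 492 after vehicle and 418, 385, 594 and 412 after folic acid. WT folic acid lay below WT vehicle in every library, and the effect on Bckdha was log2 -0.41 (SE 0.28, limma adjusted p = 0.981) in the Y share fit and log2 -0.51 (SE 0.18, limma adjusted p = 0.102) without. Dbt was 371 ± 30.3 (SD, n = 4 libraries) and 298 ± 35.1 (SD, n = 3 libraries) in WT vehicle and folic acid, and Bckdhb, the partner subunit of Bckdha, 148 ± 13.6 (SD, n = 4 libraries) and 151 ± 36.2 (SD, n = 3 libraries). Bckdhb was highest in G3 folic acid 2 (204) and next in WT folic acid 1 (193), the 2 libraries that were lowest for many other enzymes.

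The leucine branch runs through Ivd, the carboxylase subunits Mccc1 and Mccc2, and Auh, methylglutaconyl-CoA hydratase. Auh had 227, 202, 242 and 252 in WT vehicle and 295, 309 and 329 in WT folic acid. Auh in G3 was 269, 269.6, 259 and 289.6 after vehicle and 238, 247, 263 and 233 after folic acid. The WT folic acid libraries lay above every library of the other 3 groups. Its folic acid effect in WT was log2 0.43 (SE 0.11, limma adjusted p = 0.0358) without a sex term, past the threshold, and log2 0.58 (SE 0.17, limma adjusted p = 0.981) in the Y share fit, a larger difference that did not pass. After folic acid, G3 minus WT was log2 -0.43 (SE 0.13, limma adjusted p = 0.299), and the difference between the folic acid effects was log2 -0.82 (SE 0.26, limma adjusted p = 1). Mccc2 had 58.8, 93.8, 85.4 and 97.9 in WT vehicle and 96.4, 98.9 and 102 in WT folic acid. Mccc2 in G3 was 92.5, 106, 110.4 and 128 after vehicle and 70.8, 69.5, 64.9 and 66.2 after folic acid. All G3 folic acid libraries lay below all G3 vehicle libraries. That effect was log2 -0.59 (SE 0.20, limma adjusted p = 0.356) in the Y share fit and log2 -0.67 (SE 0.16, limma adjusted p = 0.0734) without. Its partner subunit Mccc1 was 319.7 ± 47.5 (SD, n = 4 libraries) and 293 ± 14.1 (SD, n = 4 libraries) in the same 2 groups, which overlapped. Ivd was 1268 ± 143 (SD, n = 4 libraries) in WT vehicle, above WT folic acid (852 ± 89.7, SD, n = 3 libraries) and G3 vehicle (903 ± 110.0, SD, n = 4 libraries) in every library.

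The valine and propionate steps held no call. Hibch hydrolyses the hydroxyisobutyryl-CoA of valine and Hibadh oxidises the product. Their folic acid effects in G3 were log2 0.075 (SE 0.22, limma adjusted p = 0.956) and log2 -0.40 (SE 0.22, limma adjusted p = 0.634). Aldh6a1, the semialdehyde dehydrogenase that follows, had log2 -0.45 (SE 0.25, limma adjusted p = 0.634). Pcca, the biotin-bearing subunit of propionyl-CoA carboxylase, had 156, 148, 183 and 229.8 in WT vehicle and 178, 149 and 181 in WT folic acid. Pcca in G3 was 166, 223, 186 and 253 after vehicle and 216, 184, 221 and 174 after folic acid. The difference of G3 from WT after vehicle was log2 0.57 (SE 0.25, limma adjusted p = 0.803) in the Y share fit and log2 0.21 (SE 0.16, limma adjusted p = 0.539) without. The groups overlapped, and Pccb, the other subunit, had log2 0.12 (SE 0.26, limma adjusted p = 0.939).

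At the ketone steps Oxct1, which activates acetoacetate for use as fuel, had 9151, 12691, 7671 and 9493 in WT vehicle and 10981, 16246 and 15879 in WT folic acid. Oxct1 in G3 was 8013, 7434, 8350.1 and 8269 after vehicle and 6537, 6887, 9045 and 9295 after folic acid. WT folic acid 2 and 3 were the 2 highest libraries, and after folic acid all G3 libraries lay below all WT libraries. The genotype difference after folic acid was log2 -0.85 (SE 0.19, limma adjusted p = 0.0303) without a sex term and log2 -0.71 (SE 0.23, limma adjusted p = 0.304) in the Y share fit, 1.63-fold lower in G3. Thick ascending limb markers also summed higher in WT folic acid (26096 to 33321) than in G3 folic acid (13718 to 21766) or WT vehicle (16001 to 21647). They were 2 genes, Umod and Slc12a1, neither at 0 in any library. In single libraries the order differed. WT folic acid 1 had the highest sum (33321) but the lowest Oxct1 of its group (10981). WT vehicle 2 had a sum of 16019 and Oxct1 at 12691. The part of the limb markers in the Oxct1 values was not tested. Acat1 was lower in WT folic acid (933 ± 92.0, SD, n = 3 libraries) than in WT vehicle (2126 ± 661, SD, n = 4 libraries) in every library. The difference was log2 -1.13 (SE 0.27, limma adjusted p = 0.0284) without a sex term and log2 0.00016 (SE 0.23, limma adjusted p = 1) in the Y share fit.

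The glycine cleavage system releases carbon dioxide and ammonia from glycine and passes a single-carbon unit to folate, and Gldc, Gcsh and Amt are its decarboxylase, lipoyl carrier and aminomethyltransferase. Gldc was 102 ± 65.9 (SD, n = 4 libraries) in WT vehicle and 282 ± 86.0 (SD, n = 4 libraries) in G3 vehicle, and the genotype difference was log2 0.46 (SE 0.48, limma adjusted p = 0.882) in the Y share fit, against the call without a sex term. Amt had 89.3, 86.3, 132 and 149.9 in WT vehicle and 121, 85.4 and 131 in WT folic acid. Amt in G3 was 99.7, 213, 169.9 and 156 after vehicle and 159.8, 143, 149.8 and 97.5 after folic acid. The genotype difference of Amt after vehicle was log2 0.89 (SE 0.38, limma adjusted p = 0.803) in the Y share fit and log2 0.47 (SE 0.24, limma adjusted p = 0.322) without. Gcsh was 520.3 ± 61.0 (SD, n = 4 libraries) in G3 vehicle and 389 ± 58.7 (SD, n = 4 libraries) in G3 folic acid, a difference of log2 -0.52 (SE 0.19, limma adjusted p = 0.395).

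Dmgdh and Sardh, mitochondrial dehydrogenases of dimethylglycine and sarcosine that also hand their carbon to folate, and the peroxisomal Pipox act beside this system. Dmgdh had 244, 195, 197 and 216 in WT vehicle and 203, 207 and 204 in WT folic acid. Dmgdh in G3 was 209, 244, 226 and 238 after vehicle and 156, 156, 213 and 193 after folic acid. In G3 its folic acid effect was log2 -0.47 (SE 0.15, limma adjusted p = 0.328) in the Y share fit and log2 -0.36 (SE 0.12, limma adjusted p = 0.192) without, and the WT folic acid libraries lay within 203 to 207. Sardh ranged from 762 in WT folic acid 1 to 1483 in WT vehicle 4. The Pipox estimates turned direction with the sex term: folic acid in WT was log2 0.80 (SE 0.36, limma adjusted p = 0.981) in the Y share fit and log2 -0.15 (SE 0.30, limma adjusted p = 0.803) without, and the genotype difference after vehicle was log2 0.77 (SE 0.35, limma adjusted p = 0.803) and log2 -0.20 (SE 0.27, limma adjusted p = 0.76).

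Arginine and creatine enzymes differed widely within WT folic acid. Ass1, argininosuccinate synthase, which with Asl makes arginine from citrulline in the proximal tubule, had 2408, 2234, 2555 and 3109.9 in WT vehicle and 833, 2209 and 2535 in WT folic acid. Ass1 in G3 was 2069, 2069, 2089 and 2162 after vehicle and 2450.1, 1392, 3353 and 2857 after folic acid. WT folic acid 1 and G3 folic acid 2 were its 2 lowest libraries, while G3 folic acid 3 was the highest of all. Gatm, which makes guanidinoacetate for creatine, was 222 in WT folic acid 1 and 900.3 and 939 in the other 2 of its group, which is its whole range over the 15 libraries. Asl ranged from 77.1 in WT folic acid 1 to 189 in WT folic acid 2. None of these 3 passed in any group comparison. Arg2 was highest in WT folic acid 1 (136), the library lowest for Ass1, and G3 folic acid 2 (109.9) came second. Its folic acid effect in WT was log2 0.46 (SE 0.51, limma adjusted p = 0.981) in the Y share fit, against the call without a sex term.

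Glutamate and aspartate enzymes held no call. Got2, the mitochondrial aspartate aminotransferase, ranged from 1251 to 1795 over all libraries, and in WT vehicle was 1441 ± 20.6 (SD, n = 4 libraries). Its cytosolic partner Got1 was 209 ± 35.2 (SD, n = 4 libraries), 237 ± 31.2 (SD, n = 3 libraries), 277 ± 63.7 (SD, n = 4 libraries) and 235 ± 29.6 (SD, n = 4 libraries) for vehicle and folic acid in WT, then in G3. Glud1, glutamate dehydrogenase, a source of ammonia, was 1161 ± 147 (SD, n = 4 libraries) and 1569 ± 239.6 (SD, n = 4 libraries) in WT and G3 vehicle, a difference of log2 0.43 (SE 0.13, limma adjusted p = 0.0867) without a sex term and log2 0.37 (SE 0.22, limma adjusted p = 0.815) in the Y share fit. Agxt2, which clears the nitric oxide synthase inhibitor dimethylarginine by transamination, had 317, 355, 284 and 408 in WT vehicle and 110.0, 219.8 and 214 in WT folic acid. Agxt2 in G3 was 271, 358, 249 and 289.6 after vehicle and 358, 196, 364 and 232 after folic acid. All 3 WT folic acid libraries lay below all of WT vehicle, and the difference, called without a sex term, was log2 -0.48 (SE 0.36, limma adjusted p = 0.981) in the Y share fit.

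**Figure D5:**
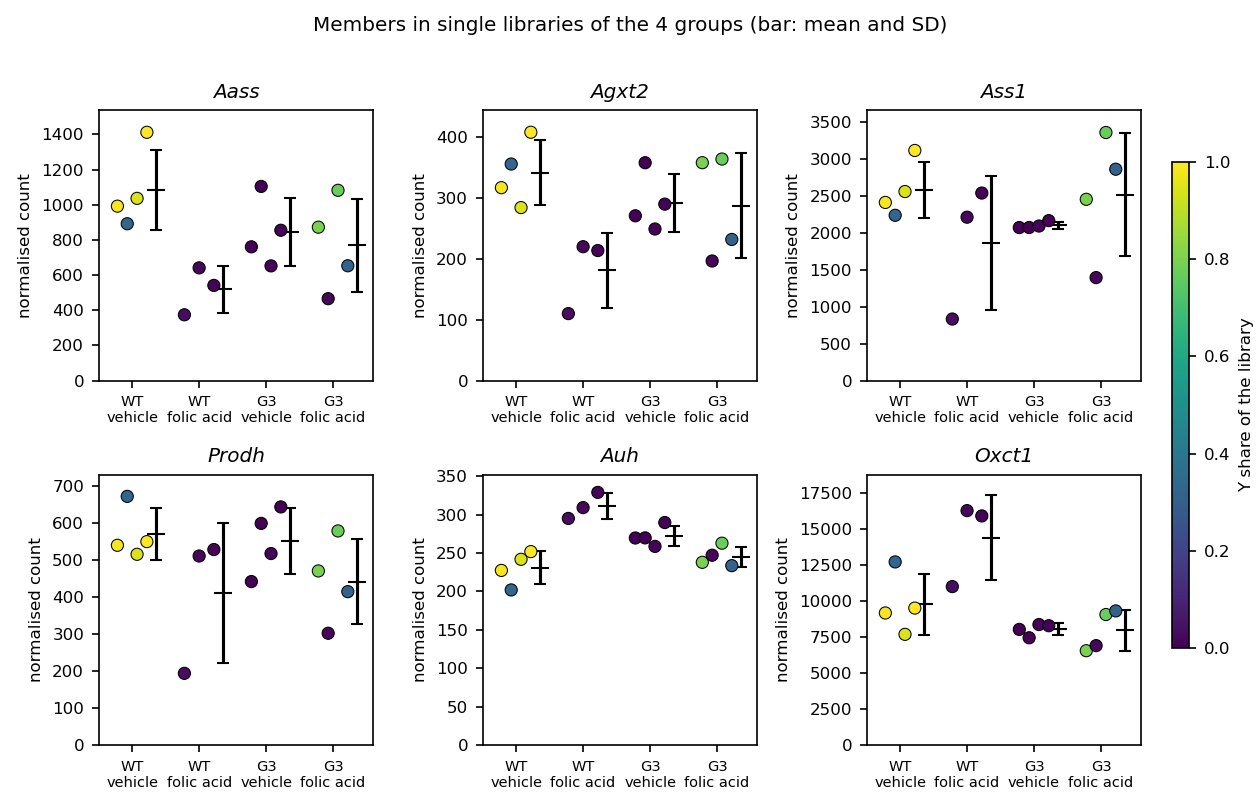
Normalised counts of Aass, Agxt2, Ass1, Prodh, Auh and Oxct1 in single libraries of the 4 groups, coloured by Y share, with each group's mean and SD. WT folic acid 1 is the lowest WT folic acid point for Aass (374), Agxt2 (110.0), Ass1 (833) and Prodh (194), and WT folic acid is the highest group for Auh and Oxct1.

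Other genes of amino acid metabolism, a list of 90 in the table of which 83 passed the filter, held further calls for Y-linked RNA. In the Y share fit 8 of 83 passed for that term, against 1.30 percent of all tested genes. Higher were Odc1, ornithine decarboxylase of polyamine synthesis, at log2 1.74 (limma adjusted p = 0.022), and Cbs, cystathionine beta-synthase, at log2 1.74 (limma adjusted p = 0.0183). Also higher was the kynurenine aminotransferase Kyat1, at log2 1.72 (limma adjusted p = 0.00107). Lower were the histidine decarboxylase Hdc, which ranged from 2.72 to 500.4 over the libraries, at log2 -6.59 (limma adjusted p = 0.000439), and the hydroxyacid oxidase Hao2 at log2 -2.22 (limma adjusted p = 0.00105). So were the aminotransferases Aadat at log2 -2.19 (limma adjusted p = 0.0229) and Kyat3 at log2 -1.97 (limma adjusted p = 0.000242), and urocanase, Uroc1, at log2 -1.72 (limma adjusted p = 0.00269). Kyat1 had 454, 245, 494 and 572 in WT vehicle and 149.8, 164 and 135 in WT folic acid. Kyat1 in G3 was 140.3, 207, 224 and 186 after vehicle and 372, 145, 445 and 270.2 after folic acid. Kyat3 had 189, 405, 174 and 174 in WT vehicle and 619, 673 and 729 in WT folic acid. Kyat3 in G3 was 352, 385, 534 and 537 after vehicle and 114, 401, 156 and 273 after folic acid. The 2 aminotransferases, which act on the same kynurenine as Kynu, stood in opposite order between the 5 libraries with Y-linked RNA alone and the 8 with Xist alone. Kyat1 was 372 to 572 in the former and 135 to 224 in the latter, and Kyat3 114 to 189 and 352 to 729. WT vehicle 2, of both kinds, had Kyat3 at 405, within the latter.

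No gene of the longer list passed for folic acid, genotype or their difference with the Y share in the limma fit. Those at an unadjusted p under 0.05 were 1, 5, 5, 12 and 2 of 83 for folic acid in WT, folic acid in G3, genotype after vehicle, genotype after folic acid and the difference. Of all tested genes 4.38, 8.93, 5.79, 10.5 and 2.78 percent were. Leaving the sex term out, limma called 13, 0, 14, 4 and 18 of 83 in that order, against 5.06, 0.273, 2.90, 2.30 and 3.82 percent of all tested genes. Odc1 had 2342, 1728, 2489.7 and 3357 in WT vehicle and 395, 593 and 607 in WT folic acid. Odc1 in G3 was 462, 612, 549 and 582 after vehicle and 1647, 562, 2906 and 1426 after folic acid. For folic acid in WT the smallest p-values were those of Odc1 (log2 -0.83, limma adjusted p = 0.981), the serine hydroxymethyltransferase Shmt2 (log2 -0.76, limma adjusted p = 0.981) and the glycine methyltransferase Gnmt (log2 0.93, limma adjusted p = 0.981). For folic acid in G3, genes among those of smallest p were Bcat2, the mitochondrial branched-chain aminotransferase (log2 -0.64, limma adjusted p = 0.349), and Glul, glutamine synthetase (log2 -0.50, limma adjusted p = 0.525). For genotype after folic acid the smallest p-values were those of Kyat3 (log2 -0.78, limma adjusted p = 0.163), Mpst, a sulfurtransferase of cysteine (log2 -0.61, limma adjusted p = 0.356), and Grhpr, glyoxylate reductase (log2 -0.50, limma adjusted p = 0.365). For genotype after vehicle they were those of Hdc (log2 -3.65, limma adjusted p = 0.747), Bcat2 (log2 0.88, limma adjusted p = 0.803) and Kyat3 (log2 -0.57, limma adjusted p = 0.803). For the difference of the folic acid effects they were those of Bcat2 (log2 -1.19, limma adjusted p = 1), Odc1 (log2 1.36, limma adjusted p = 1) and Glul (log2 -0.87, limma adjusted p = 1).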

How the data were processed

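The deposited table gives a signal per gene and library, which its values show to be read counts divided by 1 size factor per library. In the submitters' processing notes the tools were FastQC 0.11.7, TopHat2 2.0.10 with Bowtie 1.0.0 and SAMtools 0.1.19 on GRCm38, HTSeq 0.6.1 for counting, and DESeq2. The sources used here do not give the gene annotation. Per the labels' protocols the libraries were made with a QuantSeq 3' kit from 300 ng of RNA. Whole reads were recovered from 100 percent of values within 0.001.

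Genes with 10 normalised counts or more in 3 libraries or more (14651) were tested on log2(normalised count + 1) with limma 3.58.1 (R 4.3.3, mean-variance trend, 4 groups and the Y share, all 15 libraries). Calls were made at a Benjamini-Hochberg adjusted p under 0.05 over all tested genes, and differences are on that log2 scale, which understates changes of genes with few reads. The enzymes, the other lists and the sex term were chosen with earlier results of these data known. Values in every library are given for enzymes that passed, for the 4 of smallest p in each comparison and for the 4 of smallest p among those called without a sex term, and further enzymes were named to complete a pathway. Alternatives were no sex term, the labelled sex, pseudocounts of 0.5 and 5, no filter and a minimum of 50, TMM scaling, edgeR 4.0.16 and DESeq2 1.42.0 on the reads, the run of title numbers, and leaving out libraries. The fit without a sex term and without WT folic acid 1 was added after the data were seen. The procedure was tested on simulated data. Positions are from GENCODE M21 and promoters from RefSeq GRCm38.p6. A gene of the longer list is not reported here.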

Additional observations from a re-analysis of the deposited data

Results flagged for a closer look

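In groups of 4 libraries, 4 of 129 group and enzyme pairs held a library whose gap to its neighbour, as a share of the group's range, was above Dixon's critical value for 4 libraries, where chance flags about 1 in 20. Hgd was 1017 in WT vehicle 4 and 804, 831 and 829 in the other 3. Dbt was 326 in WT vehicle 3 and 386, 391 and 384 in the others. Gatm was high in G3 folic acid 1, at 591, with 510.1, 506 and 497 in the others. Asl was low in G3 folic acid 2, at 107, with 162, 156 and 163 in libraries 1, 3 and 4. WT folic acid, with 3 libraries, could not be checked in this way.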

How the results depend on the processing

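In the order folic acid in WT, folic acid in G3, genotype after vehicle, genotype after folic acid and the difference of the folic acid effects, the Y share fit called 0, 0, 0, 0 and 0 enzymes and 1, 9, 1, 17 and 2 of all genes. Without a sex term these were 5, 1, 5, 2 and 8 enzymes and 741, 40, 425, 337 and 560 genes. With the labelled sex they were 2, 1, 0, 2 and 1 enzymes and 370, 12, 17, 268 and 103 genes. Without both a sex term and WT folic acid 1 they were 0, 3, 7, 3 and 8 enzymes and 133, 360, 638, 625 and 569 genes. DESeq2 called 0, 1, 0, 0 and 0 enzymes and 4, 48, 11, 96 and 16 genes, edgeR 1, 7, 1, 12 and 1 genes, TMM scaling 1, 9, 1, 14 and 1, the fit with the run of title numbers 0, 0, 0, 0 and 1, a minimum of 50 gave 0, 7, 1, 20 and 2, and the fit without the libraries of both kinds of RNA 2, 3, 1, 31 and 0. For the Y share term, 3 enzymes and 190 genes were called, 5 and 334 by DESeq2, 1 and 86 without the libraries of both kinds, and 124 genes with the run of title numbers. DESeq2's 5 enzymes were Acat1, Oat, Kynu, Pipox and Hpd. Leaving out single libraries gave, over the same 5 comparisons and the Y share term, 0 to 0, 0 to 1, 0 to 0, 0 to 0, 0 to 0 and 1 to 4 enzymes and 0 to 6, 4 to 129, 0 to 15, 10 to 54, 0 to 14 and 79 to 280 genes. The Y share term kept 1 enzyme without G3 folic acid 2 or 3, and Hpd was called for folic acid in G3 without WT folic acid 1. Several estimates turned direction, none of them called in the Y share fit. For folic acid in WT, no sex term, the labelled sex, and no sex term without WT folic acid 1 gave Kynu 1.55, 0.99 and 1.85, Acat1 -1.13, -1.15 and -1.05, and Pipox -0.15, -0.18 and -0.10. The same 3 fits gave Pipox -0.20, -0.22 and -0.20 for genotype after vehicle and 0.32, 0.34 and 0.26 for the difference. Without the libraries of both kinds, folic acid in WT gave Aass 0.14, Acat1 -0.074 and Arg2 -0.17, genotype after vehicle Haao 0.36 and Oat -0.46, and the difference Oat 0.59 and Arg2 0.70. With that run as a term, genotype after vehicle gave Gldc -0.057 and Oat -0.11. Leaving out single libraries moved folic acid in WT to -0.49 to 0.11 for Aass, -0.60 to 0.0033 for Bckdha and -0.069 to 0.093 for Acat1, genotype after vehicle to -0.94 to 0.10 for Haao and -0.35 to 0.31 for Oat, and the difference to -0.75 to 0.36 for Oat and -1.19 to 0.31 for Arg2. The cause was not tested. No paired analysis was possible because the replicate numbers follow accession order alone. Precision was limited by 3 or 4 libraries a group and by the Y share, which differs between the groups: SEs of the folic acid effect in WT were 0.17 to 0.80 with it and 0.11 to 0.74 without. Counting error is largest, as a share, for genes of few reads such as Kynu (0.999 to 57.1 normalised counts).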
